A study of Mus musculus with 9 samples.

Results

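The genes examined here carry cholesterol through a cell: 30 genes that make it, sense it, take it in, move it, store it or send it out again. They were chosen by name, as the rows of the deposited tables whose gene symbol is on a list of 30, and all 30 were present among the 52025 genes listed. All 30 also had a mean FPKM (fragments counted on a gene, divided by its length and by the depth of its library) above 1 on at least 1 day, so every one of them was among the 15495 genes tested. The samples were ovaries of Kunming mice, an outbred stock, with no treatment given in the labels, at postnatal day 14 (PD14), PD15 and PD16, with 3 RNA sequencing libraries for each day. The question was how gene expression moves over the days when fluid-filled antra first appear in the follicles. The labels name ovary as the tissue and granulosa cells as the source. The libraries held oocyte markers (summed FPKM of 10 genes from 1120 to 1654) and theca and interstitial markers (8 genes, 1191 to 2240) beside the granulosa cell markers (10 genes, 2768 to 3570). They are called ovaries here, as the study describes them. Depth ran from 20.4 to 28.7 M fragments a library.

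Cells build cholesterol from acetyl-CoA. The mevalonate pathway makes isoprenoid units and joins them, squalene synthase starts the branch that leads only to sterols, and a chain of enzymes turns squalene into lanosterol and then into cholesterol. When membrane cholesterol is low, the protein Scap carries the transcription factor SREBP-2, encoded by Srebf2, to the Golgi, where it is cut and set free to turn on these enzymes. Insig proteins hold Scap back when sterol is plentiful. Ovarian steroid-making cells also take cholesterol esters from high-density lipoprotein through the receptor Scarb1 and keep them in lipid droplets, from which the steroid hormones are made.

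In these ovaries differences between the days were small for most of the 30 genes. No member passed the test at PD15 against PD14, 1 did at PD16 against PD14, and none did at PD16 against PD15. The gene that passed was Tm7sf2, a sterol reductase that acts on the intermediates after lanosterol, and it fell to 0.70-fold of its PD14 mean. On the log2(FPKM + 1) scale of the test the largest difference belonged to Hsd17b7, a ketosteroid reductase of the same chain. Its mean was 1.42-fold that of PD14 at PD15 and 1.38-fold at PD16, and it did not pass the test. As a ratio of means the fall of Tm7sf2 was slightly larger. The most abundant members were Soat1, which makes cholesterol esters for storage, Hmgcs1, which makes HMG-CoA, Npc2, which carries cholesterol inside lysosomes, and Fdft1, squalene synthase.

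**Figure D1:**
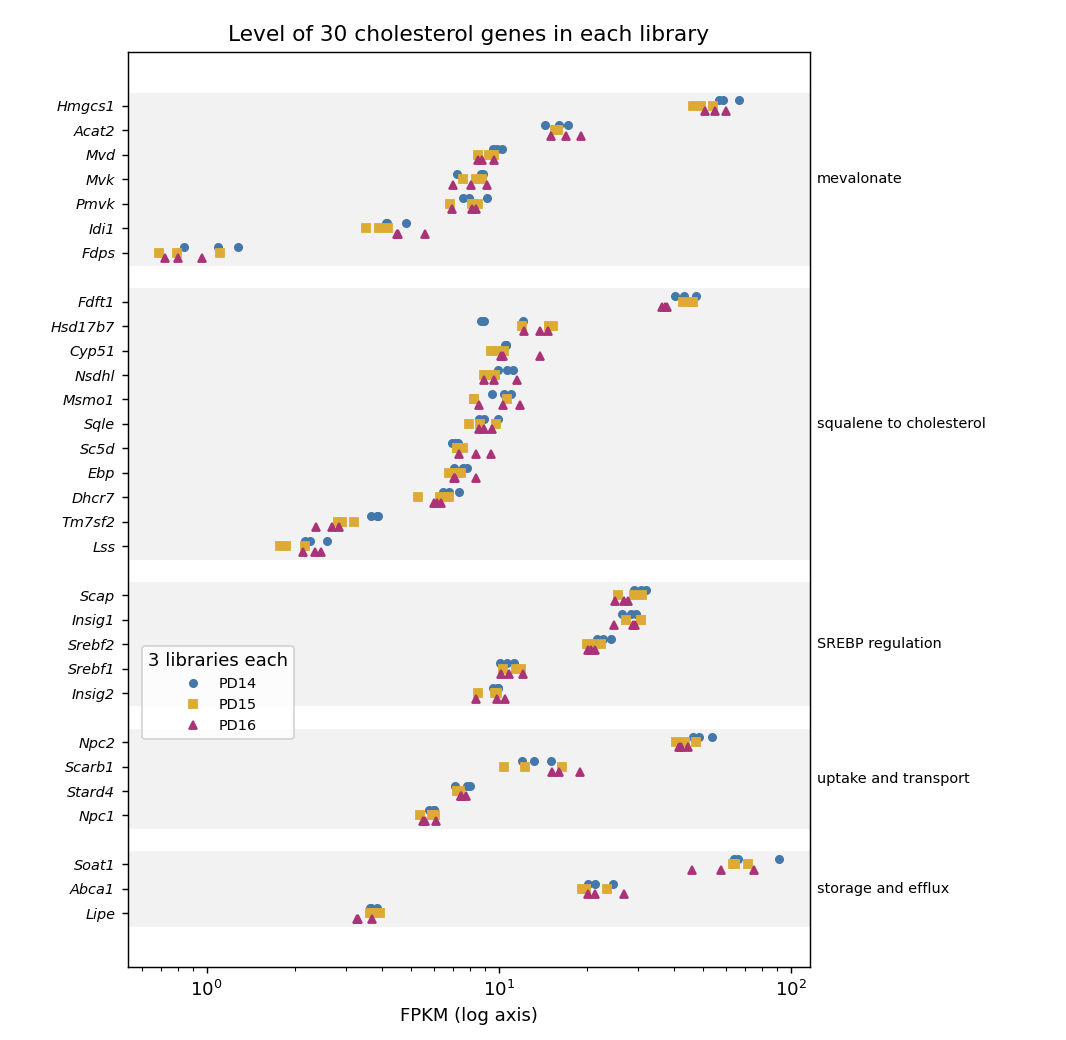
FPKM (log axis) of the 30 genes in each of the 9 libraries, grouped by role, with circles for PD14, squares for PD15 and triangles for PD16. Levels span from under 1 FPKM for Fdps to 91.3 FPKM for Soat1, and the 3 days lie close together for nearly every gene.

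Set against all genes tested, the share that passed was near the background. A gene was called at an adjusted p under 0.05, from limma on log2(FPKM + 1) with adjustment over all 15495 genes. At PD15 against PD14 0 of 30 members were called, where 0.678% of all genes were. At PD16 against PD14 1 of 30 was called (3.33%), where 4.25% of all genes were, and that member was lower, as were 1.89% of all genes. At PD16 against PD15 0 of 30 were called, where 0.729% of all genes were. The F test of any difference among the days called 1 of 30, again Tm7sf2, where it called 3.03% of all genes. At an unadjusted p under 0.05 the members numbered 4 at PD15 against PD14 (13.3%, against 14.7% of all genes), 6 at PD16 against PD14 (20.0%, against 22.8%), 3 at PD16 against PD15 (10%, against 14.1%) and 5 in the F test (16.7%, against 22.3%). The labels do not say that the libraries came from separate animals, although the study describes independent ovaries, so these p-values measure the spread between these samples.

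The direction leaned downward after PD14, by little. At PD15 24 of 30 members had a log2 change below 0 (80.0%, against 48.1% of all genes), with a median of -0.072 beside 0.0065 over all genes. Without PD15 replicate 3 that median was -0.048. At PD16 21 of 30 were below their PD14 level (70.0%, against 47.8%), with a median of -0.034 beside 0.0093. That median was -0.071 without PD16 replicate 1. It was -0.062 with libraries scaled to equal sums (TPM). This scaling moves all genes of a library alike, so the -0.062 cannot be set against the unscaled 0.0093. The counts at PD15 and at PD16 were both taken against the same PD14 libraries, so they are not separate observations. From PD15 to PD16 14 of 30 were below 0 (46.7%, against 46.8%), with a median of 0.0088 beside 0.0091. The sum of FPKM over the 30 genes ran from 489 to 533 at PD14, from 470 to 487 at PD15 and from 466 to 482 at PD16. Its lowest PD14 library (488.8) thus stood just above every later one (at most 487.0). Relative to the total FPKM of each library the days overlapped. The sum was 503 of 331616 in PD14 replicate 3 and 487 of 312306, a larger share, in PD15 replicate 2. The most abundant members, Soat1, Hmgcs1, Npc2 and Fdft1, weigh most in that sum. Many of the members share a regulator and all were measured in the same libraries, so they are not independent of each other. The list was also chosen with earlier results of these data known. For these reasons no test was run on the list, and the shares beside all genes are description only. Markers of other cells moved over the same days. The summed FPKM of 6 blood markers was 105 to 147 at PD14, 46.4 to 63.2 at PD15 and 60.9 to 116 at PD16, with all 5 tested below 0 at PD15 (median log2 change -1.02, with Hba-a1 called). That of 10 oocyte markers was 1161 to 1445, 1523 to 1654 and 1120 to 1191, with 9 of 10 above 0 at PD15 (median 0.22, with Nlrp5 called at 0.76). Also below 0 at PD15 were 6 of 8 theca and interstitial markers (median -0.24), 6 of 6 endothelial markers (-0.11) and 4 of 6 stroma markers (-0.17), with 0 called by limma and 2, 0 and 2 at an unadjusted p under 0.05. At PD16 against PD14 7 of 10 oocyte markers were below 0 (median -0.22) while Bmp15 was called higher (0.39), and 6 of 10 granulosa cell markers were below 0 (median -0.062), with Amh called higher (0.47) and Cyp19a1 lower (-0.84). All 5 muscle markers were above 0 (median 0.20), with Cnn1 called (0.61). Of 5 tested markers of surface and oviduct epithelium, 3 were below and 2 above 0 on each later day. Their median was -0.20 at PD15, with 0 called and 3 at an unadjusted p under 0.05 by limma. At PD16 it was -0.42, with 3 called lower. The part of all these markers in the lean of the members was not tested.

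Counts of members whose libraries did not overlap between days give the same scale. At PD15 4 members had every library below every PD14 library (Hmgcs1, Tm7sf2, Cyp51 and Nsdhl), where 10.2% of all genes did, and 0 had every library above, where 10.4% of all genes did. At PD16 6 were below PD14 (Tm7sf2, Fdft1, Scap, Npc2, Srebf2 and Dhcr7), where 13.5% of all genes were, and 3 were above (Hsd17b7, Sc5d and Scarb1), where 15.0% of all genes were. Between PD15 and PD16 only Fdft1 was lower without overlap, where 9.73% of all genes were. Idi1 and Stard4 were higher without overlap, where 9.85% of all genes were.

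The intervals say how large a change could have been missed on the log2(FPKM + 1) scale. The 95% interval of the log2 difference lay within 0.5 of 0 for 28 of 30 members at PD15 against PD14, for 26 at PD16 against PD14 and for 28 at PD16 against PD15. It lay within 1 of 0 for all 30 in each of these comparisons. This scale shrinks the changes of low genes, so for low members such as Fdps and Lss these counts do not bound the fold change in FPKM. The median SD within a day was 0.104 on the log2 scale for the members and 0.111 for all genes tested. The median range of the 3 day means was 0.160 for the members and 0.163 for all genes.

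**Figure D2:**
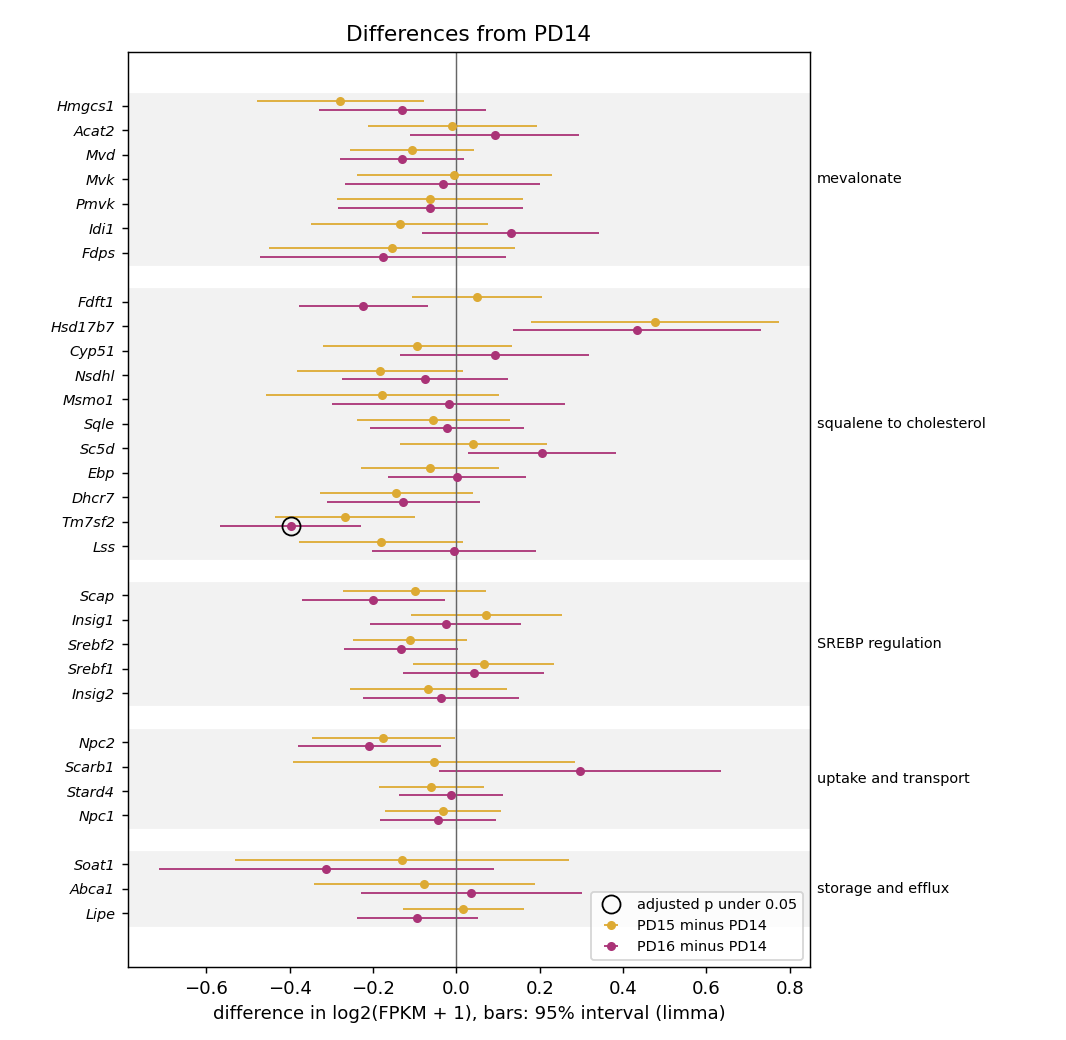
Difference from PD14 in log2(FPKM + 1) for each gene at PD15 and at PD16, with the 95% interval from limma as bars. Only Tm7sf2 at PD16 (circled) passed the test, and Hsd17b7 stands farthest to the right with 0.48 at PD15 and 0.43 at PD16.

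SREBP-2 reaches its targets through short promoter elements, often beside boxes bound by the factors NF-Y and Sp1, so the promoters of the members were read. The RefSeq table for GRCm38.p6 held a window for 24 of the 30 members, each running from 250 bases before to 50 bases after a start site. Scarb1, Npc1, Stard4, Fdps, Fdft1 and Sqle had no entry. A sterol regulatory element written as TCACNCCAC, on either strand, was found in 1 of 24 members, Hmgcs1 (4.17%, against 1.44% of all 27025 genes of the table). The CCAAT box was found in 20 of 24 (83.3%, against 41.1%) and the GC box GGGCGG in 23 of 24 (95.8%, against 38.2%). The table was not limited to genes expressed in the ovary, while all 30 members had passed the FPKM filter. No share was taken over the tested genes alone, so these shares do not set the members apart from other expressed genes. None of these motifs contains another, a gene with several windows was counted if any held a match, and a match is a description of the letters only. Only this exact sterol pattern was sought, and only in these windows. A count of 0 therefore does not show that a promoter lacks such an element. The promoters of Hmgcs1, which holds the sterol element, and of Hsd17b7, the member with the largest difference in log2(FPKM + 1), are given below. They are RefSeq bases before the start site, with matches to these motifs in capitals. ATTGG and CCGCCC are the CCAAT and GC boxes read on the other strand. Hmgcs1 lies at chr13:119690101-119690350 on the plus strand, with 1 sterol element, 3 CCAAT boxes and 2 GC boxes. Hsd17b7 lies at chr1:169969242-169969455 on the minus strand and stops where GENCODE M21 begins the gene. It has 0 matches to the sterol pattern, 2 CCAAT boxes and 3 GC boxes.
Hmgcs1: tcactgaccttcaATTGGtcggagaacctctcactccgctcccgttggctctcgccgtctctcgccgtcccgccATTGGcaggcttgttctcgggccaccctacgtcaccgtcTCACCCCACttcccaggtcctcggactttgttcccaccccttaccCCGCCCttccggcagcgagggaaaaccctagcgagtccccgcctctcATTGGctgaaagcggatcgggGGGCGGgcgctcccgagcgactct
Hsd17b7: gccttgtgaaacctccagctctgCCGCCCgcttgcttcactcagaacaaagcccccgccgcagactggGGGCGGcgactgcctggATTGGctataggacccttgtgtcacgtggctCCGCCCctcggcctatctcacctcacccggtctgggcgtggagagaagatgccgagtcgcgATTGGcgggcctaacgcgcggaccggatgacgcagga

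Among the 7 mevalonate genes none passed the test on any day. All 7 had a log2 change below 0 at PD15, with a median of -0.11 and a range from -0.28 to -0.0047, and 5 of 7 were below 0 at PD16, with a median of -0.06. Hmgcs1 (ENSMUSG00000093930, chr13:119690379-119708260, plus strand) had the lowest of these values. Its PD14 libraries read 66.7, 56.9 and 58.5 FPKM, its PD15 libraries 46.1, 49.5 and 54.0, and its PD16 libraries 60.1, 51.0 and 55.1. All PD15 libraries were thus below all PD14 libraries, and PD16 overlapped both earlier days. The difference in log2(FPKM + 1) was -0.28 at PD15 (95% interval -0.48 to -0.08, limma adjusted p = 0.196) and -0.13 at PD16 (-0.33 to 0.07, adjusted p = 0.423). The PD16 value was -0.061 without PD14 replicate 1 and -0.072 without PD16 replicate 2. Its promoter was the single one of the 24 with a match to the sterol element.

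Acat2, which joins acetyl-CoA units in the cytosol, had means of 15.9, 15.8 and 17.1 FPKM on the 3 days. A near-identical gene, Acat3, matched 1477 of its transcript bases at 97.7% identity and was listed at 0.278 to 0.482 FPKM. A shorter stretch of Acat2 also matched a transcript of Tcp1, a chaperonin gene listed at a mean of 56.4 FPKM, so the level of Acat2 is uncertain. Stretches of at most 227 bases of Hmgcs1, Msmo1, Dhcr7 and Insig1 matched other transcripts too, and the highest pseudogene copies of Idi1 and Fdft1 averaged 0.792 and 0.138 FPKM. Mvk, Pmvk and Mvd, which phosphorylate and decarboxylate mevalonate, lay between 6.83 and 10.3 FPKM in all libraries. Their log2 differences from PD14 lay between -0.13 and -0.0047. Idi1, the isomerase that readies isoprene units for chain growth, read 3.52, 3.90 and 4.19 FPKM at PD15 and 5.59, 4.49 and 4.52 at PD16. Every PD16 library was above every PD15 library, with a difference of 0.27 (0.05 to 0.48) that did not pass (adjusted p = 0.237).

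Fdps, farnesyl diphosphate synthase, was listed at a level far under that of its pathway neighbours. Its libraries read 0.834, 1.28 and 1.10 FPKM at PD14, 1.11, 0.789 and 0.687 at PD15, and 0.798, 0.722 and 0.962 at PD16. The days overlapped, and the log2 difference at PD16 was -0.18 (-0.47 to 0.12, adjusted p = 0.460). At this low level the scale matters, and it was -0.32 with a pseudocount of 0.1 and -0.29 with libraries scaled to equal sums. The processed pseudogene Gm3571 matched 1062 bases of its transcript at 98.9% identity and was listed at 4.32 to 5.85 FPKM, and 4 pseudogene copies were found in all. Summed over Fdps and the copies in the tables, the level was 7.51 ± 0.15 (SD, n = 3) FPKM at PD14, 7.42 ± 0.557 at PD15 and 6.47 ± 0.813 at PD16. Most of this sum was Gm3571, which averaged 5.26 FPKM. FPKM divides by gene length, and the exons of Fdps cover 4208 bases, where the match to Gm3571 was 1062. The sum is therefore not the level Fdps would have if fragments placed on its copies were counted on it. Fdps also shares exon bases with Gm43738 on the same strand (929 bases of its transcript matched), a gene listed at 0 FPKM in all libraries. How the authors' counting divided fragments among these copies is not given in the sources used here, so the level and the changes of Fdps are uncertain.

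The 11 genes from squalene to cholesterol held both the gene that passed and the largest difference on the scale of the test. Fdft1, squalene synthase, joins 2 farnesyl units and commits them to sterols. It read 43.0, 40.0 and 47.4 FPKM at PD14, 46.3, 42.6 and 45.9 at PD15, and 37.8, 37.2 and 36.1 at PD16. PD14 and PD15 overlapped, and all PD16 libraries were below all libraries of both earlier days. The log2 difference was -0.22 at PD16 against PD14 (-0.38 to -0.07, limma adjusted p = 0.098) and -0.27 against PD15 (-0.43 to -0.12, adjusted p = 0.113), and neither passed. Over the step from PD15 to PD16 all 10 oocyte markers were also lower, with a median log2 change of -0.44. Of these 8 did not overlap, where 9.73% of all genes were lower without overlap. Called were 2 (Zp2 and Nlrp5), where 0.729% of all genes were. At PD15 against PD14 9 of the 10 were higher (median 0.22), where Fdft1 differed by 0.05. At PD16 against PD14 7 were lower and 3 higher (median -0.22). The part of these markers in the values of Fdft1 was not tested. Its exons share 774 bases with Ctsb on the opposite strand (64.0 FPKM on average). The kit as labelled does not state strand, so reads of that stretch cannot be told apart. Hmgcs1, Idi1, Lss, Cyp51, Srebf1, Scap, Npc1 and Lipe also share some exon bases with a gene on the other strand, and the same limit holds for those stretches.

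Tm7sf2 (ENSMUSG00000024799, chr19:6062821-6068373, minus strand) was the single member called. It read 3.85, 3.65 and 3.83 FPKM at PD14, 2.90, 3.21 and 2.81 at PD15, and 2.69, 2.36 and 2.84 at PD16. All libraries of PD15 and of PD16 were below all PD14 libraries, and the later days overlapped each other. The means were 3.78 ± 0.113, 2.97 ± 0.210 and 2.63 ± 0.244 FPKM (SD, n = 3). The log2 difference was -0.27 at PD15 (SE 0.07, adjusted p = 0.149) and -0.40 at PD16 (SE 0.07, adjusted p = 0.026), and the F test gave an adjusted p of 0.047. The call of the F test was lost without each of the 9 libraries in turn. The value at PD16 rested on each of several libraries, since the adjusted p was 0.079 without PD14 replicate 1, 0.093 without PD14 replicate 3, 0.077 without PD16 replicate 1 and 0.068 without PD16 replicate 2. Over 19 alternatives in which it was tested it passed in 11, with log2 differences from -0.51 to -0.34 and adjusted p from 0.018 to 0.093. At its lowest it rested on about 236 fragments, a counting error of 6.51%.

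Tm7sf2 shares 532 exon bases with Vps51, a vesicle-tethering gene on the same strand, whose libraries ran from 7.84 to 8.88 FPKM with a log2 difference of 0.00 at PD16 (-0.13 to 0.13). In whole ovaries fewer cells of a type and less RNA per cell cannot be told apart. Markers of surface and oviduct epithelium also moved between these days. Of 5 such markers tested out of 8 listed, Krt8, Krt18 and Krt19 fell at PD16 against PD14, while the log2 differences of Upk3b and Msln were 0.049 and 0.11 and did not pass. The list's summed FPKM was 55.0 to 64.0 at PD14 and 42.4 to 47.5 at PD16, with the oviduct markers Ovgp1 and Foxj1 under 1 FPKM. Their part in the result of Tm7sf2 was not tested.

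Hsd17b7 (ENSMUSG00000026675, chr1:169949535-169969241, minus strand) reduces a keto group of sterol intermediates, and is also known in the ovary for making estradiol from estrone. It read 12.1, 8.88 and 8.67 FPKM at PD14, 15.4, 12 and 14.8 at PD15, and 12.2, 13.9 and 14.8 at PD16. PD14 replicate 1 stood apart from the other PD14 libraries and reached the lowest library of PD15, while all PD16 libraries lay above all PD14 libraries. The log2 difference was 0.48 at PD15 (0.18 to 0.77, adjusted p = 0.148) and 0.43 at PD16 (0.14 to 0.73, adjusted p = 0.094). It passed under 0 of 20 alternatives. The other 10 genes from squalene to cholesterol ran from -0.27 to 0.05 at PD15 and from -0.40 to 0.21 at PD16.

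**Figure D3:**
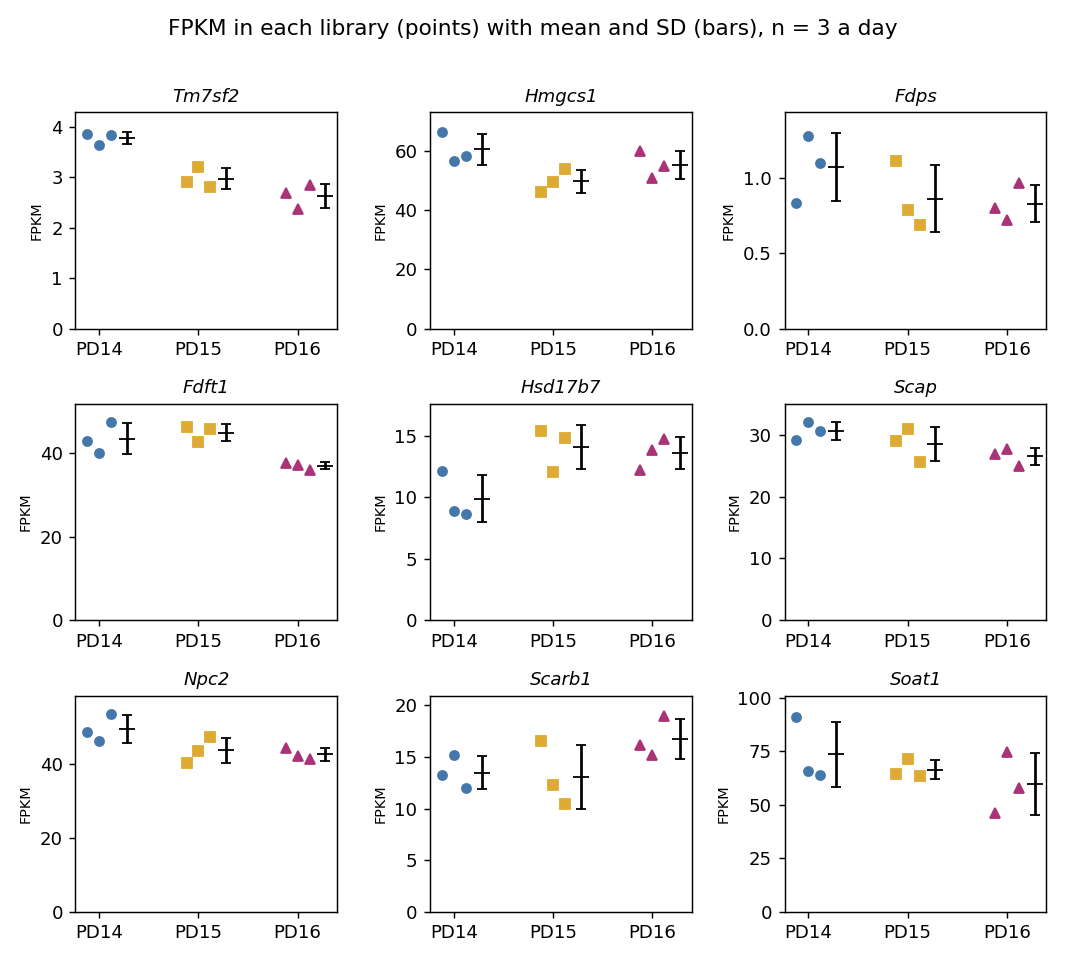
FPKM of 9 genes in each library, with the mean and SD of 3 libraries beside each day. Tm7sf2 steps down after PD14, Hsd17b7 is higher at PD15 and PD16 than in 2 of the PD14 libraries, Fdft1 is lowest at PD16, and the points of Soat1 overlap on all days.

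The other 8 enzymes of this stretch stayed within 0.21 of their PD14 level on the log2 scale on both later days. Sqle, the epoxidase that adds oxygen to squalene, had means of 9.14, 8.77 and 8.97 FPKM. Lss, which closes the rings to give lanosterol, was the lowest of the chain at 2.34, 1.94 and 2.32 FPKM. Cyp51, the lanosterol demethylase, read 10.6, 10.6 and 10.5 FPKM at PD14, 9.80, 9.38 and 10.4 at PD15, and 13.9, 10.4 and 10.2 at PD16. Its PD14 libraries were almost equal, and PD16 replicate 1 stood above all others.

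Msmo1 and Nsdhl, which remove methyl groups from the sterols made from lanosterol, had PD15 log2 differences of -0.18 (adjusted p = 0.546) and -0.18 (adjusted p = 0.373). Ebp, which shifts a double bond of the sterol, had means of 7.46, 7.10 and 7.49 FPKM. Sc5d, a desaturase near the end of the chain, read 7.27, 7.11 and 6.90 FPKM at PD14 and 8.37, 7.32 and 9.43 at PD16. These did not overlap, with a difference of 0.21 (0.03 to 0.38, adjusted p = 0.160). Dhcr7, which makes the last reduction of its branch, read 6.74, 6.46 and 7.33 FPKM at PD14 and 6.36, 6.0 and 6.16 at PD16. Those were below without overlap too, by -0.13 (adjusted p = 0.385), so the late enzymes lay on both sides of 0.

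Among the 5 genes that sense sterol, Scap and Insig1 had the highest mean FPKM on all days, Srebf2 came next, and Srebf1 and Insig2 were lowest. None passed the test. Scap, the escort of SREBP-2, read 29.1, 32.0 and 30.7 FPKM at PD14, 29.0, 31.0 and 25.7 at PD15, and 26.9, 27.7 and 25.0 at PD16. All PD16 libraries were below all PD14 libraries, and PD15 overlapped both. The log2 difference at PD16 was -0.20 (-0.37 to -0.03, limma adjusted p = 0.161). Srebf2 read 24.3, 21.8 and 22.7 FPKM at PD14 and 20.8, 21.4 and 20.3 at PD16, again without overlap, with a difference of -0.13 (-0.27 to 0.00, adjusted p = 0.233).

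Insig1 is itself a target of SREBP-2, and its mRNA is often read as a gauge of that factor. Its means were 28.1 ± 1.61, 29.6 ± 1.93 and 27.6 ± 2.51 FPKM (SD, n = 3), with differences from PD14 of 0.07 (-0.11 to 0.25) and -0.03 (-0.21 to 0.15). Insig2 had means of 9.82, 9.35 and 9.59 FPKM. Srebf1, which encodes the SREBP-1 proteins that act mainly on fatty acid genes, had means of 10.7, 11.2 and 11 FPKM. For both genes the libraries of the days overlapped.

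Of the 4 genes of uptake and transport, none passed. Scarb1, the lipoprotein receptor of steroid-making cells, read 13.2, 15.2 and 12 FPKM at PD14, 16.5, 12.3 and 10.4 at PD15, and 16.1, 15.2 and 18.9 at PD16. The lowest PD16 library lay just above the highest PD14 library, and PD15 spanned the whole range of PD14. The log2 difference was 0.30 at PD16 against PD14 (-0.04 to 0.63, adjusted p = 0.275) and 0.35 against PD15 (0.01 to 0.69, adjusted p = 0.337), the latter being 0.21 without PD15 replicate 3. Its within-day SD of 0.220 was at percentile 86.3 of all genes tested, so this gene was among the less evenly measured members.

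Npc2 and Npc1 hand cholesterol across the lysosomal membrane. Npc2 read 48.7, 46.3 and 53.6 FPKM at PD14, 40.4, 43.6 and 47.3 at PD15, and 44.5, 42.2 and 41.3 at PD16. All PD16 libraries were below all PD14 libraries, and 1 PD15 library reached into the PD14 range. The log2 difference was -0.18 at PD15 (adjusted p = 0.329) and -0.21 at PD16 (-0.38 to -0.04, adjusted p = 0.145). Npc1 was about level, with means of 5.93, 5.79 and 5.73 FPKM and a PD16 difference of -0.04 (-0.18 to 0.10). Stard4, a soluble sterol carrier, had the smallest within-day SD of the members (0.050), with means of 7.62, 7.26 and 7.54 FPKM.

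Storage and efflux comprised 3 genes, and none passed. Soat1, the highest member, read 91.3, 65.8 and 64.1 FPKM at PD14, 64.5, 71.5 and 63.4 at PD15, and 45.9, 74.9 and 57.8 at PD16. PD14 replicate 1 was the highest and PD16 replicate 1 the lowest, and all days overlapped. The log2 difference was -0.13 at PD15 (-0.53 to 0.27, adjusted p = 0.781) and -0.31 at PD16 (-0.71 to 0.09, adjusted p = 0.331). The PD16 value was -0.15 without PD14 replicate 1, -0.14 without PD16 replicate 1 and -0.49 without PD16 replicate 2, and the PD15 value was 0.031 without PD14 replicate 1, -0.20 without PD14 replicate 2 and -0.22 without PD14 replicate 3. Its within-day SD of 0.263 was the largest of the members, at percentile 90.5 of all genes tested. The summed theca and interstitial markers, from cells rich in cholesterol esters, ran from 1617 to 2240 FPKM at PD14, from 1191 to 1765 at PD15 and from 1220 to 1630 at PD16. Most of that sum was Hsd3b1, with means of 1785, 1291 and 1273 FPKM. Of the 8 markers 6 were below 0 at PD15, 3 of them without overlap. At PD16 against PD14 4 were above and 4 below 0, with a median log2 change of 0.022. Those above were Star (0.38), Cyp17a1 (0.29), Hhip (0.09) and Ptch1 (0.06). Those below were Cyp11a1 (-0.61), Lhcgr (-0.52, without overlap), Hsd3b1 (-0.49) and Insl3 (-0.02). None of these 8 markers was called by limma in any comparison, with 2, 2 and 1 at an unadjusted p under 0.05 at PD15 against PD14, PD16 against PD14 and PD16 against PD15. Their part in the spread of Soat1 was not tested. Lipe, the neutral lipase that frees cholesterol from its esters, had means of 3.71, 3.77 and 3.42 FPKM. Abca1, the pump that loads cholesterol onto lipoprotein, had means of 22.1, 20.9 and 22.8 FPKM, with all days overlapping.

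Libraries of the same day also differed from each other. PD15 replicate 3 was the lowest library for 11 of 30 members, among them Sqle, Lss, Dhcr7, Scarb1 and Abca1. It was also the deepest library, and its total of FPKM over all genes was the highest of the 9 (342803, where the others ran from 308363 to 338237). PD14 replicate 1 was the highest library for 7 members (Hmgcs1, Sqle, Lss, Tm7sf2, Srebf2, Stard4 and Soat1). PD16 replicate 1 was also the highest for 7, all but Insig2 of them synthesis enzymes (Acat2, Idi1, Cyp51, Msmo1, Nsdhl and Ebp), while it was the lowest for Soat1 and Lipe. The part of depth and totals in these values was not tested.

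**Figure D4:**
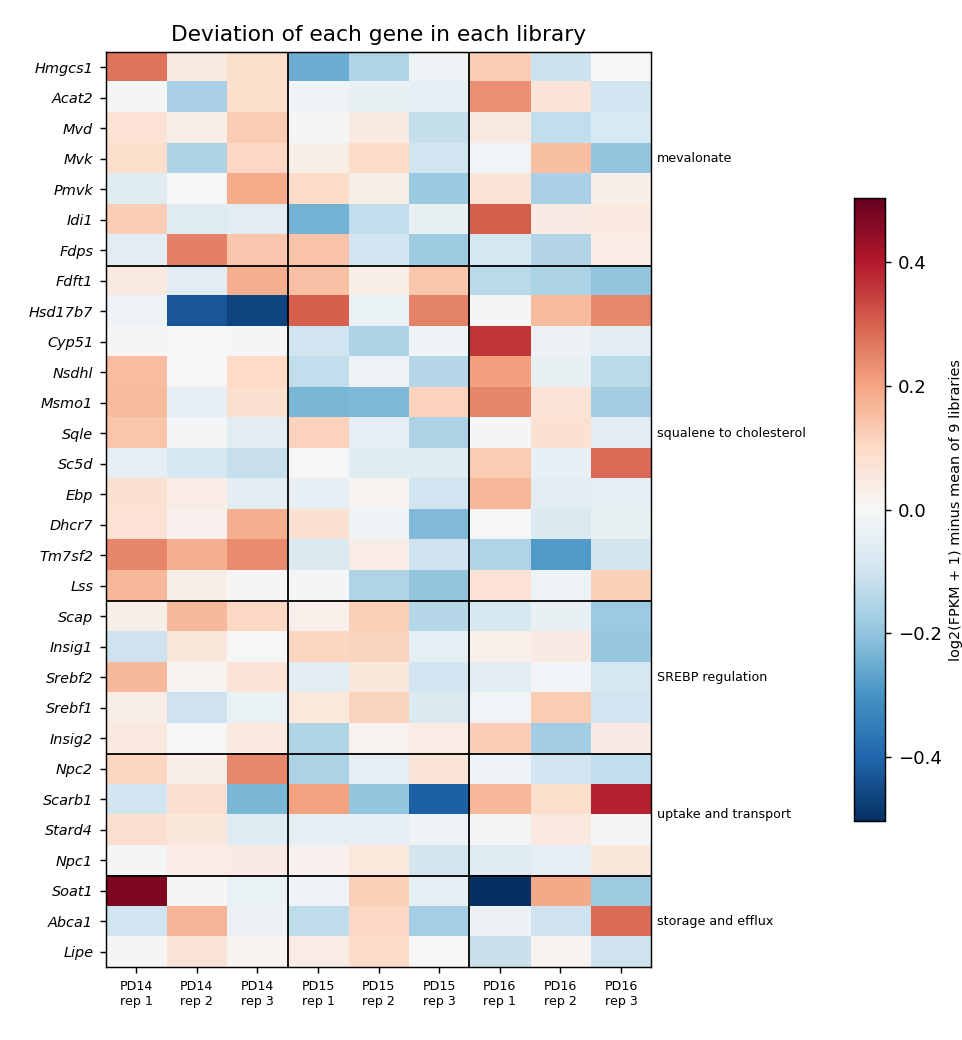
Deviation of log2(FPKM + 1) in each library from the mean of the gene over 9 libraries (colour), with genes grouped by role and vertical lines between days. The strongest colours are Soat1 in PD14 replicate 1 and PD16 replicate 1 and Hsd17b7 in PD14 replicates 2 and 3, and the columns of a day are seldom alike from top to bottom.

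Genes of neighbouring pathways were counted in the same fit. Of 12 further genes of sterol regulation tested (such as the SREBP proteases and the LXR partners), 10 genes of the other mevalonate branches, 14 fatty acid targets of SREBP-1 and 3 oxysterol genes, limma called 0 in any comparison. At an unadjusted p under 0.05 there were 1, 0, 3 and 0 of them in the order of these lists at PD15 against PD14 (14.7% of all genes), 2, 1, 3 and 1 at PD16 against PD14 (22.8%), and 1, 1, 1 and 1 at PD16 against PD15 (14.1%). Of 20 further genes of sterol transport, 3 were called at PD16 against PD14, where 4.25% of all genes were, with a median log2 change of 0.029 over the 20. At an unadjusted p under 0.05 there were 8 of 20 at PD15 and 7 of 20 at PD16 against PD14. Cd36, a scavenger receptor for fatty acids and modified lipoprotein, read 6.75, 7.0 and 7.44 FPKM at PD14 and 11.6, 9.51 and 11.3 at PD16, and rose by 0.55 on the log2 scale (adjusted p = 0.018). It also rose against PD15 by 0.54 (adjusted p = 0.041). Osbpl5, a lipid exchanger, rose by 0.30 (adjusted p = 0.049), and Gramd1b, which moves cholesterol from the plasma membrane to the endoplasmic reticulum, fell by 0.29 (adjusted p = 0.044).

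Cd36 is also made by macrophages and endothelial cells. The summed FPKM of 8 macrophage markers was 28 to 30.7 at PD14 and 34.2 to 43.1 at PD16, with 1 of 7 tested called (Lyz2), and that of 6 endothelial markers was 57.6 to 60.9 and 51.8 to 54.5, with 0 called and 2 at an unadjusted p under 0.05. Their part in the result of Cd36 was not tested.

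These calls stood close to the threshold. Cd36 passed at PD16 against PD14 in 16 of 20 alternatives, and not without PD14 replicate 1 (adjusted p = 0.059), PD14 replicate 3 (0.052) or PD16 replicate 1 (0.066). Its rise against PD15 passed in 11 of 20, and leaving out any of 5 libraries (PD14 replicate 3, PD15 replicates 1 and 2, PD16 replicates 1 and 3) gave adjusted p from 0.063 to 0.129. Osbpl5 passed in 7 of 20 and failed without every library but PD14 replicate 2 and PD15 replicate 3, with adjusted p up to 0.142, and it failed with libraries scaled to equal sums (0.165). Gramd1b passed in 8 of 20 and failed without every library but PD15 replicates 1 and 3, with adjusted p up to 0.140.

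Among 8 tested genes of esters and droplets, out of 12 listed, 3 were called at PD16 against PD14 and 1 at PD15, where 4.25% and 0.678% of all genes were, with medians of -0.024 and -0.036 over the 8. Plin3, a coat protein of small lipid droplets, read 48.3, 49.7 and 50.4 FPKM at PD14, 46.8, 46.5 and 47.6 at PD15, and 39.4, 40.4 and 39.5 at PD16. The 3 days did not overlap, and at PD16 it fell by 0.31 as a log2 difference (adjusted p = 0.015). It passed in 18 of 20 alternatives, all but those without PD14 replicate 3 (0.059) and PD16 replicate 1 (0.061). Plin1, the droplet coat that Lipe docks on, read 7.71, 6.88 and 6.31 FPKM at PD14, 4.28, 4.10 and 4.32 at PD15, and 5.37, 3.89 and 4.69 at PD16. It was below PD14 in all later libraries and fell by 0.60 at PD15 (adjusted p = 0.038) and by 0.50 at PD16 (adjusted p = 0.029).

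Plin1 passed in 10 of 20 alternatives at PD15, failing without any PD14 or PD15 library or PD16 replicate 3, with adjusted p up to 0.131. At PD16 it passed in 12 of 20, failing without any PD14 library or PD16 replicates 2 or 3, with adjusted p up to 0.092. Plin1 also marks fat tissue. The other 7 fat markers listed each averaged under 1 FPKM and were not tested, with Adipoq at 0.039 FPKM, and the summed FPKM of the 8 was 7.18 to 8.43 at PD14, 4.93 to 5.65 at PD15 and 4.37 to 6.47 at PD16, most of it Plin1 itself. The part of fat tissue in the result of Plin1 was not tested. Mgll, which cleaves the last fatty acid from a glyceride, rose by 0.24 (adjusted p = 0.041). It passed in 7 of 20 alternatives, failing without every library but PD15 replicate 3, with adjusted p up to 0.136. Soat2, the other esterifying enzyme, averaged 0.311 FPKM and was not tested, far under the FPKM of Soat1.

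Of 10 genes that use cholesterol for steroids, 2 were called at PD16 against PD14, where 4.25% of all genes were, and 0 at PD15. At an unadjusted p under 0.05 limma gave 5 of 10 at PD15 (14.7% of all genes) and 6 of 10 at PD16 (22.8%). The median log2 change of the 10 was -0.22 at PD15 and -0.27 at PD16. Star, Cyp11a1, Hsd3b1 and Cyp17a1 of this list are also among the theca and interstitial markers. Cyp19a1 and Hsd17b1 are also among the granulosa cell markers. The part of cell shares in these values was not tested. Cyp19a1, the aromatase that makes estrogen, read 6.61, 3.77 and 4.95 FPKM at PD14 and 2.54, 2.69 and 1.89 at PD16, and fell by 0.84 on the log2 scale (adjusted p = 0.032). Fdxr, which feeds electrons to mitochondrial P450 enzymes, fell by 0.30 (adjusted p = 0.041). Cyp19a1 passed in 12 of 20 alternatives, failing without PD14 replicates 1 or 3 or any PD16 library, with adjusted p up to 0.10. Fdxr passed in 9 of 20, failing without any PD14 or PD16 library or PD15 replicate 1, with adjusted p up to 0.120. Members and users of cholesterol were measured in the same libraries, and whether the 2 groups differ in their change was not tested.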

How the data were processed

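RNA of 9 mouse ovary samples was sequenced on an Illumina HiSeq after library preparation with a NEBNext Ultra kit. The authors deposited FPKM for each gene, 1 table a library, and no further scaling was applied. The submitters' processing notes name HISAT2 2.0.5 and mm10; the counter and annotation are not given in the sources used here. GENCODE M21 (GRCm38) gave positions, exon lengths and overlapping genes, and 50376 of the 52025 listed genes (96.8%) had an identifier in it. Depth was read from the FPKM step of a single fragment: 94.9% to 95.3% of low values were whole multiples within 0.05.

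Values were taken as log2(FPKM + 1), a scale that understates changes of low genes. A gene entered the test if its mean on any of the days exceeded 1 FPKM. The test was limma 3.58.1 (R 4.3.3) with an intensity trend, over all 9 libraries in a single model, two-sided, with Benjamini-Hochberg adjustment and a threshold of 0.05. The model was tested on simulated data, where it missed changes as small as those of most members, so a gene not called may still have changed. Near copies of the members' transcripts were found with BLAST 2.17.0 (at least 95.0% identity over 150 bases). Python 3.11.15, NumPy 2.4.6, pandas 2.3.3 and Matplotlib 3.10.9 were also used. All members are named. Each library's FPKM is given for members that passed the test and for the most abundant and the most changed (PD14 to PD16) member of each role, and for a few others shown as examples after their values were seen; genes of the pathway and marker lists are named where they passed. The members and lists were chosen with earlier results of these data known. Replicate numbers were shared between days, but same-numbered libraries did not deviate together (correlations from -0.21 to 0.16), so no pairing was used. Alternatives covered the pseudocount, filter, scaling, variance model, replicate block and leaving out each library.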

Additional observations from a re-analysis of the deposited data

How the results depend on the processing

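Over 20 alternatives (19 for the F test) no member was called at PD15 against PD14 or at PD16 against PD15. The single call at PD16 against PD14 became 0 with no expression filter, with a filter at a mean FPKM above 5 (where Tm7sf2 was not tested), with libraries scaled to equal sums (TPM), and with only the 2 days compared; leaving out single libraries gave 0 to 1. The single call of the F test became 0 under the same filters and that scaling, and 0 without each library in turn. With the replicate number as a block both counts were 0; the numbers do not pair the samples, so this is given as a count only. The causes were not tested.

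When single libraries were left out, the median log2 change of the members kept its sign at PD15 against PD14 (-0.099 to -0.048) and at PD16 against PD14 (-0.071 to -0.034), and ran from -0.016 to 0.049 at PD16 against PD15. Small uncalled differences turned sign over the same settings: at PD16 against PD15 Fdps ran from -0.091 to 0.071, Hsd17b7 from -0.15 to 0.028 and Npc2 from -0.089 to 0.023, and at PD15 against PD14 Fdft1 ran from -0.0076 to 0.11, Soat1 from -0.22 to 0.031 and Scarb1 from -0.22 to 0.084, with 0.0094 under array weights. Depth limits Fdps most, the member with the lowest FPKM.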
